A study of Mus musculus with 6 samples.

Results

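The Hox genes of the HoxA, HoxB, HoxC and HoxD clusters were compared between wild-type (Klf4 +/+) and Klf4-null (Klf4 -/-) mouse embryonic fibroblasts. Members were found by gene symbol in the probe annotation, which gave 51 of 46621 probes for 38 genes. The RefSeq gene table lists 39 mouse Hox genes, and the remaining gene is not analysed here. The series holds 3 wild-type and 3 Klf4-null samples, each measured on 1 Illumina bead array. All 6 samples were of the C57Bl/6 strain, aged 13 days, and grown in the same serum-containing medium, with no treatment named. The labels do not say how the Klf4 allele was disrupted, nor whether the numbered replicates came from separate embryos or cultures, so every p-value below rests on a spread that may be technical.

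Hox genes encode homeodomain transcription factors that give cells along the head-to-tail axis, and later along the limb, their regional identity. Genes at the same place in the 4 clusters descend from a common ancestor and share a paralog number. Genes with low numbers are switched on early and as far forward as the hindbrain, and those with high numbers late and towards the tail, the far end of the limb and the genital region. Fibroblasts taken from different body sites are known to keep different sets of active Hox genes in culture.

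Values are the authors' normalized intensities, which are linear and start at 25.8 rather than near 0. A background floor was estimated on every array from the dimmest values and lay between an intensity of 54.0 and 54.2. A probe was tested when it exceeded the floor on 3 or more arrays, as 21825 probes did. Klf4 itself is read by 3 probes that disagree. Of these, 2 fell to background in null cells (log2 fold changes -1.19 and -0.66) and the brightest rose from 426 ± 60.0 to 715 ± 19.2 (mean ± SD, n = 3 arrays, as for every ± given here; a log2 fold change of 0.76, adjusted p = 2.4e-05 by limma). Whether the brightest probe lies outside the disrupted part was not given in the sources used here. The fibroblast label was checked against 12 markers. All 12 were tested, among them Vim at 20730 ± 302 in wild type and 20680 ± 188 in null cells. In null cells 4 were lower and 3 higher, a called share of 58.3%, beside 39.9% of all genes tested. Thy1, a fibroblast surface protein, fell at least 60.9-fold, the collagen gene Col3a1 rose 5.65-fold, and Prrx1, a transcription factor of limb and facial mesenchyme, fell 2.23-fold on its brightest probe. Not all of the 24 markers of 6 other cell types were bright enough to test. Those tested were 1 epithelial, 2 endothelial, 1 blood and macrophage, 1 skeletal muscle, 3 neural and 2 pluripotent. Of these, 2 neural markers rose and 1 endothelial marker fell, called shares of 66.7% and 50%, against 0% in the other types. The rises were those of the neural markers Nes, from 43.8 ± 0.33 to 810 ± 47.0, and Sox2, from 56.1 ± 2.52 to 74.7 ± 1.89 on its brighter probe. The summed intensity of the 4 neural markers was 239 to 242 on the wild-type arrays and 958 to 1054 on the null arrays, where most of it came from 1 Nes probe. The other Nes probe was at background on every array, at 48.6 ± 4.23 in wild type and 49.6 ± 1.67 in null cells. Tubb3 did not pass, and Sox10 was at background on every array. Both had lower null values, at 91.4 ± 2.54 against 81.2 ± 1.85 for Tubb3 and 49.1 ± 0.75 against 42.5 ± 1.38 for Sox10. The fall was that of the endothelial marker Cdh5, from 64.6 ± 2.59 to 53.7 ± 3.01. The part of these differences in the Hox values was not tested.

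Klf4-null cells had lower signal from 12 Hox genes with paralog numbers 2 to 8. Higher signal was called for 4 genes with numbers 9 to 13, a share near that of all genes, and the filter admitted each of these through its null values only. Each gene was read by its brightest tested probe, and 24 of the 38 genes had one. Of these 24, 12 fell, 4 rose and 8 did not pass an adjusted p under 0.05 by limma, with adjustment over all probes tested. By probe, 18 of 27 tested Hox probes passed, beside 38.9% of all probes. The share of genes that fell was 50%, beside 20.6% of all 16213 genes tested, and the share that rose was 16.7%, beside 19.3%. With genes at background in 1 group counted at their lower bound, called changes of at least 2-fold made up 33.3% of the tested Hox genes (5 lower and 3 higher), beside 6.83% of all genes (3.13% lower and 3.70% higher). The groups did not overlap for 17 of the 24 genes (70.8%), beside 48.3% of all genes. The median log2 fold change was -0.22 for the Hox genes and -0.03 for all genes, also with such genes at their bound. These counts leave out 14 members that were too dim to test. They also include 7 members that passed the filter through 1 group only, as 4.54% of all genes did, and such genes had to differ. Among the other 17, above background in some sample of both groups, 9 fell and 0 rose. This subset leaves out all 4 rises by its definition, and the matching shares of all genes were not computed.

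**Figure D1:**
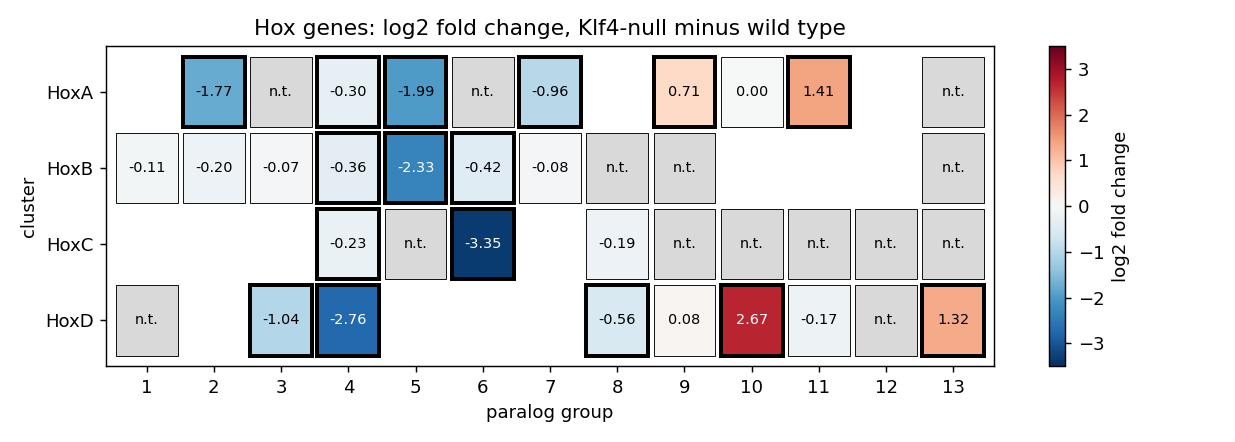
Log2 fold change (Klf4-null minus wild type, 3 arrays each) of every Hox gene analysed, by cluster (rows) and paralog group (columns). Heavy outlines mark the 16 genes that passed the test, grey squares marked n.t. were too dim to test, and empty places hold no gene of the set. Genes at background in 1 group are shown at their fitted value, whose size is only bounded. The 12 blue outlined squares lie in paralog groups 2 to 8 and the 4 red ones in groups 9 to 13.

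In the plot of the 4 clusters, HoxA had 4 genes that fell and 2 that rose among 7 tested. In HoxD, 3 fell and 2 rose among 7 tested. HoxB had 3 that fell and 0 that rose among 7, and HoxC had 2 that fell and 0 that rose among 3. The called shares were 85.7% in HoxA, 42.9% in HoxB, 66.7% in HoxC and 71.4% in HoxD, beside 39.9% of all genes tested. That of HoxB was near the share of all genes, and 2 of its falls, Hoxb5 and Hoxb6, passed the filter through wild type only. In HoxB and HoxC no member above paralog group 8 was bright enough to test.

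Among paralog groups 1 to 4, 6 of 9 tested genes fell (66.7%, beside 20.6% of all genes) and 0 rose. Of these falls, 1 passed the filter through wild type only. Hoxd4, which patterns the neck vertebrae, had the largest measured fall in groups 1 to 4. It gave intensities of 634, 694 and 561 on the wild-type arrays and of 92.1, 93.7 and 91.8 on the null arrays. The groups lay far apart, and the fall was 6.78-fold (a log2 fold change of -2.76 with SE 0.09, adjusted p = 1.05e-11 by limma). Hoxd3, which acts in the uppermost vertebrae, gave 89.3, 87.6 and 95.2 in wild-type cells and 43.3, 42.7 and 46.6 in the null ones. It was above background on every wild-type array and on no null array, a fall of at least 1.68-fold (a log2 fold change of -1.04 with SE 0.08, adjusted p = 1.18e-07). Hoxa2, which sets the identity of the hindbrain and of the pharyngeal arch behind the jaw, gave 222, 187 and 193 in wild-type cells and 58.9, 57.3 and 59.4 in the null ones. The null values sat just over the floor, and the fall was 3.41-fold (a log2 fold change of -1.77 with SE 0.08, adjusted p = 8.26e-10).

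The 3 remaining falls in this range were small and all belonged to paralog group 4. Hoxb4, known for expanding blood stem cells when overexpressed, gave 130, 135 and 113 in wild-type cells and 99.2, 98.8 and 95.9 in the null ones (a log2 fold change of -0.36 with SE 0.08, adjusted p = 0.00365). Hoxa4 gave 90.4, 82.0 and 101 in wild-type cells and 80.2, 68.3 and 72.5 in the null ones, so that the groups did not overlap but came close to each other (a log2 fold change of -0.30 with SE 0.09, adjusted p = 0.0201). Hoxc4 gave 81.3, 79.9 and 84.5 against 63.8, 71.5 and 74.3 (a log2 fold change of -0.23 with SE 0.08, adjusted p = 0.0386). The call for Hoxa4 was lost without wild-type replicate 1 or 3 or null replicate 2 or 3, with adjusted p of 0.0515 to 0.102. That for Hoxc4 was lost without any array but null replicate 3, with adjusted p of 0.0517 to 0.156.

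In paralog groups 5 to 8, whose members pattern the chest region, 6 of 8 tested genes fell (75%, beside 20.6% of all genes) and 0 rose. Of these falls, 2 passed the filter through wild type only. Hoxc6, a marker of the thoracic region and of the forelimb level, gave 546, 667 and 635 on the wild-type arrays and 66.2, 55.5 and 58.8 on the null arrays. Every null value lay just above the floor, and the fall was 10.2-fold (a log2 fold change of -3.35 with SE 0.10, adjusted p = 3.88e-12 by limma). This is the value of the brighter of 2 tested probes, and their mean fell by 1.73 on the log2 scale (adjusted p = 1.75e-09 by limma). The dimmer probe, at 68.3 ± 3.31 in wild type, lay near the floor and had little room to fall. The mean of the probes therefore cannot rank Hoxc6 against Hoxd4. Hoxb5 gave 241, 237 and 256 in wild-type cells and 47.0, 49.5 and 49.8 in the null ones. It was at background on all null arrays and fell at least 4.52-fold (a log2 fold change of -2.33 with SE 0.08, adjusted p = 1.45e-11). Hoxa5, which is required for normal development of the lung and airway, gave 1431, 1693 and 1381 in wild-type cells and 394, 353 and 383 in the null ones. It remained far above background in null cells while falling 3.98-fold (a log2 fold change of -1.99 with SE 0.09, adjusted p = 5.81e-10).

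Hoxa7 gave 2120, 2073 and 1955 in wild-type cells and 898, 1100 and 1183 in the null ones, a fall of 1.94-fold (a log2 fold change of -0.96 with SE 0.10, adjusted p = 3.17e-06). Hoxd8 gave 1069, 1187 and 1218 against 816, 726 and 816, a fall of 1.47-fold (a log2 fold change of -0.56 with SE 0.09, adjusted p = 0.000118). Both genes stayed well above background in null cells. Hoxb6 gave 68.7, 60.0 and 65.7 in wild-type cells and 45.9, 48.4 and 51.2 in the null ones. It was above background in wild type only, a fall of at least 1.20-fold (a log2 fold change of -0.42 with SE 0.08, adjusted p = 0.00112). In whole cultures such as these, fewer cells expressing a gene and less RNA per cell cannot be told apart.

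Paralog groups 9 to 13, the genes related to Abdominal-B of the fly, held all 4 rises, and none of their 7 tested members fell. The rises made up 57.1% of these 7, beside 19.3% of all genes tested. Each of the 4 was above background on every null array and on no wild-type array, so the folds given are lower bounds. The filter admitted these genes only through their null values, so they had to be higher, and nothing is read from the share of 57.1%. Among all genes tested, 2.68% were above background on all null arrays only and 1.86% on all wild-type arrays only, beside 4 and 3 of the 24 Hox genes. Hoxd10, which acts in the lumbar spinal cord and the hindlimb, gave 40.9, 42.2 and 40.8 in wild-type cells and 277, 265 and 247 in the null ones. It rose at least 4.86-fold (a log2 fold change of 2.67 with SE 0.08, adjusted p = 4.51e-12 by limma). Hoxa11, required in the forearm skeleton, the kidney and the uterus, gave 47.0, 40.3 and 42.1 in wild-type cells and 107, 112 and 124 in the null ones, a rise of at least 2.12-fold (a log2 fold change of 1.41 with SE 0.09, adjusted p = 1.67e-08).

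Hoxd13, which shapes the digits and the external genitalia, gave 40.2, 50.1 and 44.7 in wild-type cells and 119, 108 and 110 in the null ones. It rose at least 2.07-fold (a log2 fold change of 1.32 with SE 0.09, adjusted p = 4.71e-08). Hoxa9, which is active in blood progenitors and in many myeloid leukaemias, gave 51.1, 50.1 and 51.3 against 82.0, 84.4 and 82.4. Its rise was at least 1.53-fold (a log2 fold change of 0.71 with SE 0.07, adjusted p = 3.07e-06). For all 4 genes the lowest null array lay above the highest wild-type array.

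**Figure D2:**
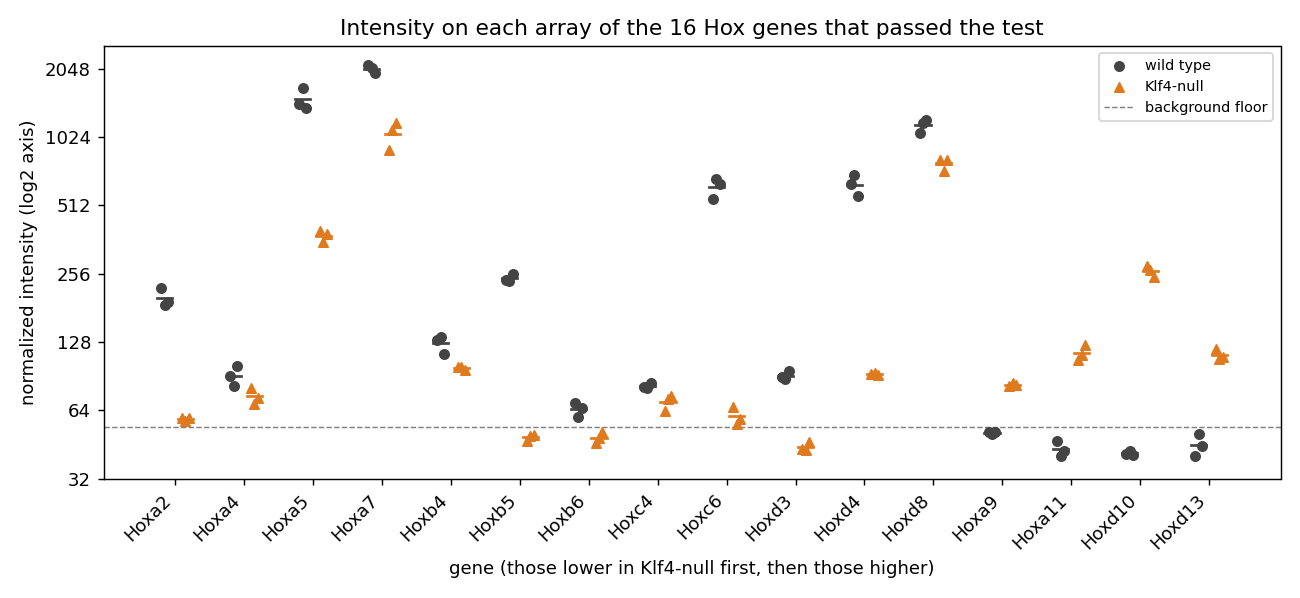
Normalized intensity (log2 axis) on each of the 3 wild-type (circles) and 3 Klf4-null (triangles) arrays for the 16 Hox genes that passed the test, with short lines at group means and a dashed line at the background floor of 54.2. Hoxa5, Hoxa7 and Hoxd8 stay far above the floor in null cells, Hoxb5, Hoxb6 and Hoxd3 drop below it, and Hoxa9, Hoxa11, Hoxd10 and Hoxd13 are below it in wild type and above it in null cells.

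The members that did not pass were spread over the same clusters. Hoxd9 was well above background in both groups, with 365, 377 and 380 in wild-type cells and 437, 373 and 378 in the null ones. Its groups overlapped (a log2 fold change of 0.08 with SE 0.08, adjusted p = 0.532), although its cluster neighbours Hoxd8 and Hoxd10 fell and rose. Hoxb1, a hindbrain gene of rhombomere identity, gave 125, 148 and 124 against 109, 130 and 130 (a log2 fold change of -0.11 with SE 0.10, adjusted p = 0.451). The other 6 tested members were dim. Hoxb2, Hoxb3, Hoxb7, Hoxc8, Hoxd11 and Hoxa10 had group means of 54.4 to 78.1 and log2 fold changes of -0.20 to 0.00, with adjusted p of 0.0802 to 0.992. The groups of Hoxb2 did not overlap, at 62.1 to 71.4 in wild type and 54.0 to 60.8 in null cells. Hoxc8 passed without wild-type replicate 3 (a log2 fold change of -0.32, adjusted p = 0.0123, against -0.19 and 0.176 with all arrays).

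The 14 members that could not be tested were Hoxa3, Hoxa6, Hoxa13, Hoxb8, Hoxb9, Hoxb13, Hoxc5, Hoxc9, Hoxc10, Hoxc11, Hoxc12, Hoxc13, Hoxd1 and Hoxd12. They were read by 18 probes, with intensities of 34.9 to 61.3 over all arrays. Of these probes, 13 were above background on no array and 5 on 1 or 2 arrays, so signal above background was absent or rested on 1 or 2 arrays. With no filter on dim probes, Hoxc9 was the only one to pass, at 53.8 ± 6.46 in wild type and 44.4 ± 1.06 in null cells (a log2 fold change of -0.27, adjusted p = 0.0425), where 1 of 6 arrays lay above background.

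The genes that fell and the genes that rose lay in different ranges of paralog number, 2 to 8 and 9 to 13, a pattern that was known from earlier results of these data. The filter admitted all 4 genes that rose through their null values only, and 3 of those that fell through their wild-type values only. These genes had to differ in the direction found, so nothing is read from the split. The fitted log2 fold changes of Hoxb5, Hoxb6, Hoxd3, Hoxa9, Hoxa11, Hoxd10 and Hoxd13 are measured against background in 1 group, so their sizes are only bounded and cannot be ranked. The measured sizes of the other HoxA genes did not follow the order of the numbers. They were -1.77 for Hoxa2, -0.30 for Hoxa4, -1.99 for Hoxa5, -0.96 for Hoxa7 and 0.00 for Hoxa10 on the log2 scale. The only bounded HoxA values were 0.71 for Hoxa9 and 1.41 for Hoxa11. In HoxD the measured ones were -2.76 for Hoxd4, -0.56 for Hoxd8, 0.08 for Hoxd9 and -0.17 for Hoxd11. Those only bounded were -1.04 for Hoxd3, 2.67 for Hoxd10 and 1.32 for Hoxd13. Paralogs of group 4 ranged from -2.76 (Hoxd4) to -0.23 (Hoxc4), so genes of the same number changed by unequal amounts.

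**Figure D3:**
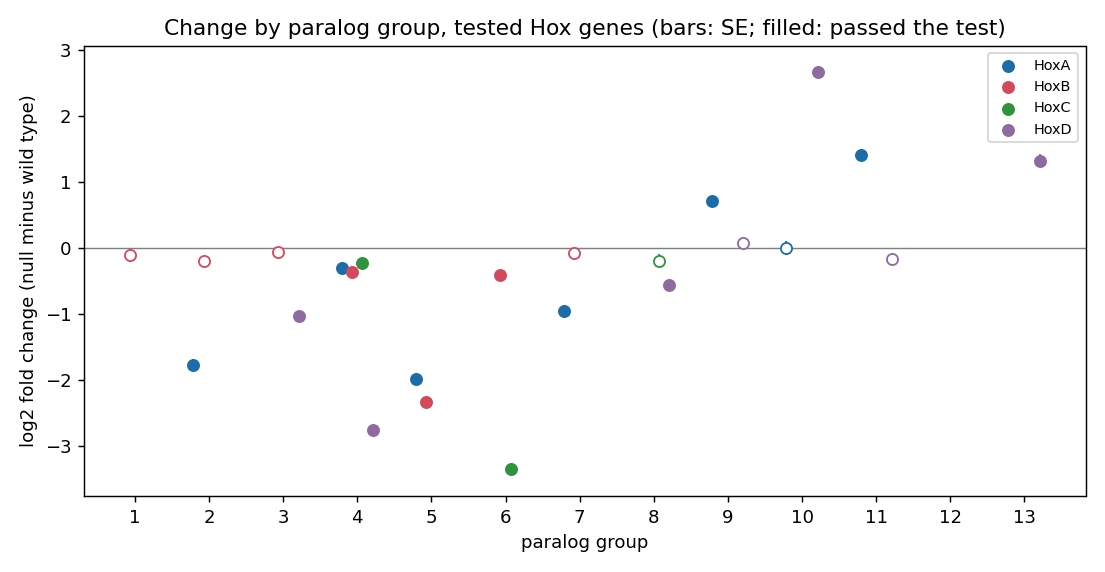
Log2 fold change (Klf4-null minus wild type) of the 24 tested Hox genes against paralog group, coloured by cluster, with standard errors that are mostly smaller than the points; genes at background in 1 group are drawn at their fitted value, whose size is only bounded. Filled points passed the test and open points did not; all filled points up to group 8 lie below 0 and all filled points from group 9 lie above 0.

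Probes of the same gene did not always move alike. Of the 38 genes, 27 were read by 1 probe, 9 by 2 and 2 by 3. Both tested probes of Hoxa7 fell, by log2 fold changes of -0.96 and -1.33. The dimmer of them, ILMN_2621038, gave 1507, 2094 and 1489 in wild-type cells and 626, 654 and 717 in the null ones. Both probes of Hoxc4 fell too, by -0.23 and -0.37. Hoxc6 was the exception. Its brighter probe, ILMN_1217328, fell 10.2-fold, whereas ILMN_2703668 gave 72.0, 67.1 and 65.8 in wild-type cells and 65.4, 66.5 and 58.4 in the null ones, with overlapping groups (a log2 fold change of -0.11, adjusted p = 0.359). The difference between the changes on the 2 probes was itself tested, a test chosen after the values were seen, by fitting the difference of the probes on each array with limma over 5612 such pairs. Its adjusted p was 1.48e-11 for Hoxc6 (difference -3.25, SE 0.13), 0.0478 for Hoxa7 (0.37, SE 0.14) and 0.451 for Hoxc4 (0.13, SE 0.12). For Hoxc6 a large difference was set in advance by the little room the dimmer probe had to fall, so nothing is read from it. Among all pairs 33.3% differed at an adjusted p under 0.05. The sources used here do not place the probes within the transcripts.

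The rise of Hoxa9 rests on 1 of its 3 probes. ILMN_2608820 gave 42.7, 41.9 and 53.4 in wild-type cells and 54.3, 54.2 and 55.9 in the null ones, and ILMN_2772762 gave 53.8, 50.02 and 53.4 against 56.7, 51.2 and 59.0. Both had 2 null arrays above background and were not tested. The second probe of Hoxc8, below the floor throughout, was at 43.9, 47.0 and 44.5 in wild-type cells and 49.5, 50.1 and 47.4 in the null ones.

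**Figure D4:**
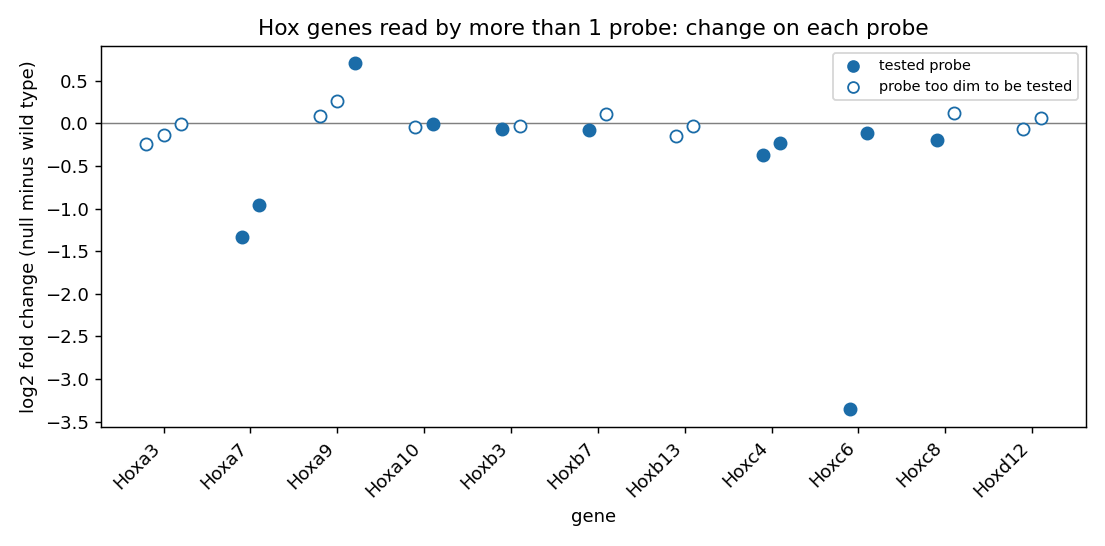
Log2 fold change (Klf4-null minus wild type) on every probe of the 11 Hox genes read by more than 1 probe; filled points are tested probes and open points are probes too dim to test. The 2 tested probes of Hoxc6 lie at -3.35 and -0.11, while those of Hoxa7 and of Hoxc4 lie on the same side of 0.

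Upstream sequence was examined because neighbouring genes of the same cluster moved in opposite directions. RefSeq promoters (GRCm38.p6) matched 22 of the 38 genes, with 24 start sites, and the 250 bases before each start were searched. The sequence CACCC, the core of the box bound by Kruppel-like factors, was searched on both strands, so also as GGGTG. It was found before 15 of the 24 Hox starts (62.5%), beside 52.0% of all 32851 promoters of this length. By outcome, it was found before 3 of 4 starts of genes that rose, 5 of 8 of genes that fell, 4 of 6 of genes that did not pass and 3 of 6 of untested genes. The GC box GGGCGG, also on both strands, was before 10 of the 24 starts (41.7%), beside 32.7% of all promoters. A match is a description of letters and not a binding site. The upstream sequences of a gene that fell and a gene that rose in HoxD and in HoxA are printed 5′ to 3′ along the gene, with CACCC or GGGTG in capitals. Hoxd4 is at chr2:74721728-74721977 (plus strand), Hoxd10 at chr2:74691641-74691890 (plus strand), Hoxa5 at chr6:52204588-52204837 (minus strand) and Hoxa11 at chr6:52245811-52246060 (minus strand).
Hoxd4: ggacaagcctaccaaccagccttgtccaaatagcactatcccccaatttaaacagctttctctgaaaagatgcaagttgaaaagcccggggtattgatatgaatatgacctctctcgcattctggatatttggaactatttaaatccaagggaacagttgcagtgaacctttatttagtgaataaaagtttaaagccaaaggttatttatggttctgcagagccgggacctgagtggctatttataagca
Hoxd10: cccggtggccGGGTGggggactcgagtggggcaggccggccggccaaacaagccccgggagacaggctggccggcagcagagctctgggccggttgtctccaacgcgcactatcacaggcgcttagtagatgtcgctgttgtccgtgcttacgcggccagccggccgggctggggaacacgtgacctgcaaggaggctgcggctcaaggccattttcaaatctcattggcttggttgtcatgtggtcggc
Hoxa5: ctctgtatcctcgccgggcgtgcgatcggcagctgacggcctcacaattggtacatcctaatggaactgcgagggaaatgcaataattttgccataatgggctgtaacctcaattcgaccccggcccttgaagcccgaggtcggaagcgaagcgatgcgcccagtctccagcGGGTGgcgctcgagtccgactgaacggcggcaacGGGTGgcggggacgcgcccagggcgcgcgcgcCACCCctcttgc
Hoxa11: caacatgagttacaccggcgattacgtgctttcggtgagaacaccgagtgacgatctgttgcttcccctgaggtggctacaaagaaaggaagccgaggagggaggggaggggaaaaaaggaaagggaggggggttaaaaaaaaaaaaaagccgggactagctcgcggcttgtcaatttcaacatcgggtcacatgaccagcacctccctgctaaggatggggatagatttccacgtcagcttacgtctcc

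Hoxa5 holds 3 copies of the sequence in this window, Hoxd10 holds 1, and Hoxd4 and Hoxa11 hold 0. Whether the sequence bears on the direction of change was not tested.

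Transcripts annotated within the clusters on the other strand or between Hox genes also differed between the groups. The RefSeq table lists 30 such symbols that are no member, 8 had a probe, and the 4 that were tested all passed, 3 lower and 1 higher, beside 39.9% of all genes tested. Of these 4, 3 passed the filter through 1 group only and so had to differ, and nothing is read from their share. Hoxa11os, a non-coding transcript from the strand opposite Hoxa11, gave 36.3, 39.1 and 32.1 in wild-type cells and 388, 373 and 388 in the null ones. It was at background on every wild-type array and rose at least 7.08-fold (a log2 fold change of 3.42 with SE 0.09, adjusted p = 1.09e-12 by limma), together with Hoxa11. Hoxaas2 gave 67.0, 59.6 and 66.1 in wild-type cells and 43.1, 45.4 and 51.5 in the null ones, and Hoxaas3 gave 59.0, 66.7 and 66.7 against 48.5, 43.9 and 47.2. Both were at background in null cells, with falls of at least 1.19-fold and 1.18-fold. Hoxd3os1, opposite Hoxd3 and named after its values were seen, gave 67.2, 70.9 and 60.0 in wild-type cells and 51.3, 54.9 and 50.3 in the null ones, where 1 of 3 arrays was above background (a log2 fold change of -0.34 with SE 0.09, adjusted p = 0.00598). A further probe each of Hoxaas3 and Hoxd3os1 was at background on all arrays. These transcripts were matched through their own older names in the probe annotation. Whether a probe of an opposite-strand transcript can also take up signal from its partner was not given in the sources used here.

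Of 8 Hox cofactors, proteins of the Pbx, Meis and Pknox families that bind DNA beside Hox proteins, 6 were tested, of which 2 fell and 4 did not pass. Meis1 fell 4.34-fold, from 526, 538 and 583 in wild type to 138, 123 and 120 in null cells (a log2 fold change of -2.12 with SE 0.08, adjusted p = 1.12e-10). Its other tested probes fell as well, by -1.31 and -0.36 on the log2 scale. Pbx2 fell 1.52-fold on its brighter probe (a log2 fold change of -0.60 with SE 0.10, adjusted p = 0.000256), and its other probe did not pass (-0.18, adjusted p = 0.117). The called share was 33.3%, beside 39.9% of all genes, and the median log2 fold change of the 6 was -0.07.

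**Figure D5:**
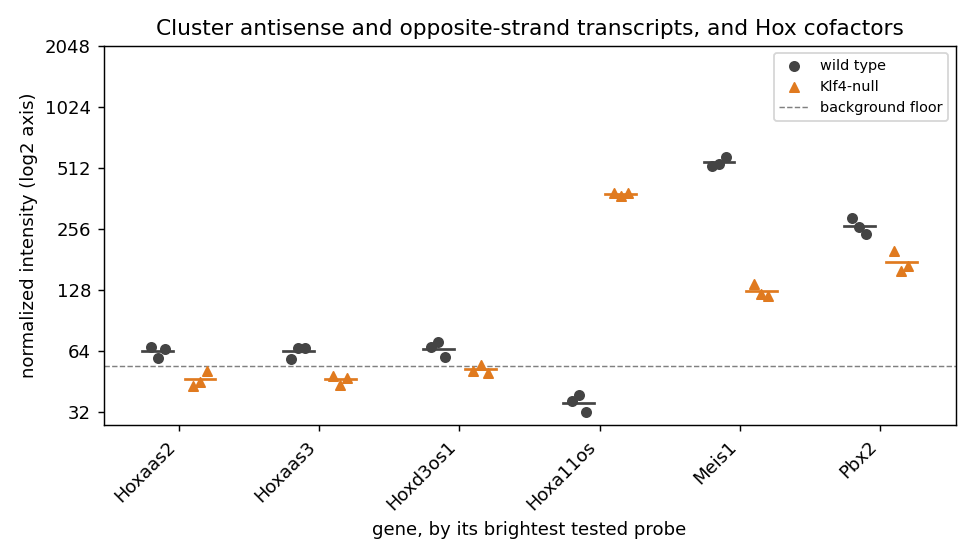
Normalized intensity (log2 axis) on each wild-type (circles) and Klf4-null (triangles) array for 4 transcripts annotated within the HoxA and HoxD clusters and for the cofactors Meis1 and Pbx2, with group means as short lines and the background floor as a dashed line. Hoxa11os goes from below the floor in wild type to 373 to 388 in null cells, and Meis1 goes from between 526 and 583 to between 120 and 138.

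By their brightest tested probes, few of the listed genes that switch Hox clusters on or keep them silent changed. Of 16 upstream and chromatin regulators, 13 were tested, 1 fell, 2 rose and 10 did not pass, a called share of 23.1%, beside 39.9% of all genes. Ezh2, the Polycomb methyltransferase that silences Hox genes, fell 1.72-fold, from 218 ± 13.1 to 127 ± 13.0 (a log2 fold change of -0.78 with SE 0.09, adjusted p = 1.02e-05). Men1, a partner of the activating Kmt2a complex, rose 1.37-fold from 803 ± 98.4 to 1099 ± 147, and Rnf2, a Polycomb ubiquitin ligase, rose 1.28-fold from 61.7 ± 5.76 to 79.2 ± 6.36. Bmi1, a Polycomb gene that did not pass by its brighter probe (a log2 fold change of 0.01), fell on its other tested probe (-0.33, adjusted p = 0.0303 by limma). The 2 regulators at background on every array were the caudal genes Cdx1 and Cdx4. Suz12 was above background on 1 array only and was not tested.

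Genes next to the clusters moved in both directions by small amounts. Of 24 neighbours, which were Evx1, Evx2 and the 3 nearest protein-coding genes on either side of each cluster, 12 were tested, 3 fell, 3 rose and 6 did not pass, with a median log2 fold change of 0.01. The called share of 50% stood beside 39.9% of all genes. Calcoco1, beside HoxC, rose 1.45-fold on its brighter probe, while its other tested probe gave -0.05 on the log2 scale. Atf7, also near HoxC, rose 1.31-fold on its brightest probe, while its other tested probes did not pass (0.24 and -0.11 on the log2 scale, adjusted p = 0.0675 and 0.407). Snx11, near HoxB, fell 1.29-fold. Evx1 and Evx2, the homeobox genes at the ends of HoxA and HoxD beyond Hoxa13 and Hoxd13, were at background on every array in both groups.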

How the data were processed

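Total RNA of 3 wild-type and 3 Klf4-null samples was labelled as biotinylated cRNA for Illumina bead arrays, per the labels' protocols. The deposited values are linear intensities of 46621 probes with medians of 51.7 to 51.8 on the arrays; their sorted values were nearly equal, so the authors had normalized them. The sources used here do not name the software, background treatment or build. A second deposited table gave gene symbols, while its other 12 columns, with names that match no sample, were not used.

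Log2 intensities were fitted with limma 3.58.1 (lmFit, eBayes) in R 4.3.3, 2-sided, with Benjamini-Hochberg adjustment over the 21825 probes tested and no covariate. The background of an array was modelled by mirroring the log2 values below their mode, and its 0.95 quantile served as the floor. Probes above the floor on at least 3 arrays were tested. A gene was read by its tested probe with the highest mean. Fold changes are Klf4-null over wild type; "at least" uses the floor for a group at background, and remaining background would make ratios of dim probes too small. Older symbols were updated through RefSeq (GRCm38.p6) for 8747 probes, with members matched by the deposited symbol. The number of arrays limits precision. The fit was tested on simulated data. All 38 members are accounted for, with values on every array for those called and for probes that disagree, and other genes come from lists of cofactors, regulators, neighbours, cluster transcripts and cell type markers, with up to 3 called genes of each named by size; 1 cofactor is not reported here. Members and lists were chosen with earlier results of these data known.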

Additional observations from a re-analysis of the deposited data

How the results depend on the processing

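The alternatives numbered 19, of which 6 left out 1 array, and gave 442 values for the 24 tested Hox genes. Of these, 423 kept their side of the threshold, 18 lost the call and 1 gained it. The values of called genes kept their direction, and 4 values of Hoxa10, which is not called, changed sign, to between 0.00 and 0.09. The 10 called genes other than Hoxa4, Hoxa9, Hoxb4, Hoxb6, Hoxc4 and Hoxd8 passed under every alternative that could test them. When a probe had to exceed background on all 6 arrays, 0 of 15 Hox genes rose and 11 Hox probes were called, against 4 genes and 18 probes, since this filter removes genes at background in 1 group. In a test against a change of 1.5-fold, 1766 probes were called against 8483, 7 Hox genes fell against 12, and 11 Hox probes were called; the genes that lost the call were Hoxa4, Hoxa9, Hoxb4, Hoxb6, Hoxc4 and Hoxd8. Leaving out 1 array gave 7174 to 8248 probes, 10 to 11 Hox genes lower, 4 higher and 16 to 17 Hox probes. These fits kept the probes that the filter had admitted on all 6 arrays. The 4 genes that rose therefore stayed in the test when a null array was left out, and nothing is read from their unchanged count. Deviations from the group means correlated at -0.02, 0.05 and -0.23 between same-numbered arrays and at -0.26 to 0.27 between other-numbered ones. With 3 arrays per group these values cannot exclude a pairing of the samples. With replicate number as a block, 8052 probes, 11 lower and 4 higher Hox genes were called, and only the call of Hoxc4 was lost (adjusted p = 0.0555). Without moderation of the variances Hoxc4 and Hoxa4 lost their calls. Dim signal limits 14 members, for which no change could be tested.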
